A study of Arabidopsis thaliana with 24 samples.

Results

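A set of 119 genes had lower mean transcript levels under water deficit in both young and older rosette leaves of Arabidopsis thaliana. They were chosen from the measured values. A gene entered when its mean normalized count was at least 10 over the 12 libraries of each leaf age and its water difference was -0.7 or lower in all 4 comparisons. The water difference is the mean log2(normalized count + 1) of the 3 water-deficit libraries minus that of the 3 well-watered libraries, and the comparisons are Col-0 and gtl1-4 in emerging and in expanding leaves. Of 37336 gene identifiers, 16185 passed the filter on the mean in both tables, so the 119 genes are those of 16185 that met the rule. Because the 4 water differences chose the genes, they are given as a description with no test.

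The plants were the reference accession Col-0 and gtl1-4, a knockout line of GTL1, which encodes a trihelix transcription factor. Well-watered plants were held at 65 to 100% of the medium's water content and deficit plants at 30%. Leaves called emerging were harvested when 1 day old, counted from emergence, and leaves called expanding at an age of 14 to 15 days. All 8 groups of genotype, water supply and leaf age had 3 biological replicates, each a pool of 10 plants, so a value averages whole leaves over plants and the mutant is represented by a single allele.

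Leaf cells grow by taking up water into the vacuole while the wall around them yields. Yielding depends on enzymes that cut and rejoin xyloglucan, the polysaccharide that tethers cellulose, and on proteins that modify pectin and the wall surface, while cortical microtubules guide the deposition of cellulose. Tonoplast aquaporins let water into the vacuole and invertases supply it with sugars, and gibberellin, auxin and brassinosteroid promote the process.

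The libraries recovered from the scaling held 14700000 to 43500000 reads each for emerging leaves, while expanding leaves had 14900000 to 27100000, of which nuclear genes took 11400000 to 32800000 and 4700000 to 10000000. Chloroplast genes took 17.4 to 22.0% of well-watered and 20.9 to 24.1% of deficit emerging libraries, and 62.7 to 72.9% and 62.2 to 78.6% of expanding libraries. GTL1 was at 301 to 384 normalized counts in well-watered gtl1-4 emerging leaves against 1379 to 1511 in Col-0, and at 236 to 322 against 739.5 to 951 in expanding leaves. GTL1 transcripts were therefore lowered and still counted in the line labelled as a knockout (gtl1-4 minus Col-0 averaged over water supply -2.31 ± 0.103 (SE) on the log2 scale in emerging leaves, adjusted p = 3.08e-09 by limma). All 5 mesophyll markers were above a mean of 10 in every group. Of the 2 root markers LBD29 was at 0 in every library and PYK10 was counted in emerging leaves, where the sum of both was 33.3 to 129 in well-watered and 52.3 to 247 in deficit libraries, and the sum of the flower markers AG and AP3 was at most 4.24 in emerging and 21.2 in expanding leaves. The 3 epidermal markers summed to 18847 to 25977 in well-watered and 15766 to 19591 in deficit emerging leaves, and to 1424 to 2058 and 1171 to 1382 in expanding leaves, where the ranges did not overlap. The 3 guard cell markers were also lower under deficit at both ages, with overlapping ranges and medians of 359 and 287 in emerging and 269 and 151 in expanding leaves. The sum of the 2 phloem companion cell markers was 679 to 920 in well-watered and 1467 to 2034 in deficit emerging leaves, and 1943 to 4064 and 3396 to 4870 in expanding leaves. The 3 trichome markers summed to 41.7 to 67.7 in well-watered and 68.9 to 111 in deficit expanding leaves, and overlapped in emerging leaves. The part of these shifts in the water differences below was not tested, and in whole leaves fewer cells of a type and less RNA per cell cannot be told apart.

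Upstream sequences are shown for 3 genes of the xyloglucan endotransglucosylase/hydrolases, the family with the most members in the set. Each is the 250 bases before the annotated start in TAIR10.1 (RefSeq), 5′ to 3′ on the gene's strand, with matches to the motifs named below in capitals.
XTH6, chr5:26298478-26298727 (plus strand): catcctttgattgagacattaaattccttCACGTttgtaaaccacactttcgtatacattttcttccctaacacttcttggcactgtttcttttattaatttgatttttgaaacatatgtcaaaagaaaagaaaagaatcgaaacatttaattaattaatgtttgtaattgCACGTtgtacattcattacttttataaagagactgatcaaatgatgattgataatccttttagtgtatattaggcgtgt
XTH9, chr4:1415367-1415616 (plus strand): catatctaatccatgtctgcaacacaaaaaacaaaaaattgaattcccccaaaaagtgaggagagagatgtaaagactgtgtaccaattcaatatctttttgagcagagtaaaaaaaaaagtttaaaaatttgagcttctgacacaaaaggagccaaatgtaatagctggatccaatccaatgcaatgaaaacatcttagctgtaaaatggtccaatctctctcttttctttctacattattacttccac
XTH22, chr5:23308681-23308930 (minus strand): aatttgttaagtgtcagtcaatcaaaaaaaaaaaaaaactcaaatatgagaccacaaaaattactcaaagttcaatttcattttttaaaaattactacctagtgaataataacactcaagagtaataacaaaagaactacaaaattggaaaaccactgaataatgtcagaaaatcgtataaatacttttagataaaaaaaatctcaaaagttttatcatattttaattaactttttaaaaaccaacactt

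In XTH6 the capitals mark 2 occurrences of ACGTG read on the other strand, as CACGT. XTH9 and XTH22 held none of the searched letters in these 250 bases. The other members of the family differed in the longer windows used for the counts below, which run to 50 bases after the start. There GGTAAA was found in XTH4, XTH8 and XTH24, CGTGTG in XTH8, and AATNATT in XTH7, XTH8, XTH24 and also XTH22. Across windows from 250 bases before to 50 bases after the start, on either strand, ACGTG was found in 36 of the 119 genes (30.3%) and in 27.1% of 16045 promoters of genes that passed the filter. The longer G-box CACGTG, which contains ACGTG, was found in 9 genes (7.56%) and in 9.08% of promoters. Of the GT-type letters, variants of which trihelix factors bind, GGTAAA was found in 17.6% of the set and 18.0% of promoters, GGTAAT in 7.56% and 13.1%, and GGTTAA in 9.24% and 17.8%. AATNATT was found in 37.8% and 35.0%, AAACCCTAA in 2.52% and 3.43%, CGTGTG in 12 genes of the set and 6.51% of promoters, and CGTGCG in none of the set and 337 promoters. The widest gap was for TGGGCC, found in 8 genes (6.72%) and in 21.1% of promoters. These shares describe letters in a window and carry no test.

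The median water difference of the 119 genes was -1.26 in Col-0 and -1.17 in gtl1-4 emerging leaves, and -1.51 and -1.35 in expanding leaves, where the medians of all genes tested lay between -0.01 and 0.02. Differences at or below -1 in all 4 comparisons were found for 52 genes and at or below -1.5 for 15. Limma called 87 of the 119 lower in Col-0 emerging leaves (background 6.69% of 18529 genes), 87 in gtl1-4 emerging leaves (3.9%), 95 in Col-0 expanding leaves (7.32% of 16522) and 82 in gtl1-4 expanding leaves (2.4%). Lower calls in all 4 comparisons were made for 60 genes and in none for 8. Every deficit library was below every well-watered library for 107 and 103 genes in Col-0 and gtl1-4 emerging leaves (background 18.5% and 13.3%) and for 109 and 112 genes in expanding leaves (14.8% and 13.5%). In 83 genes there was no overlap in any of the 4 comparisons. For the counts over all 4 comparisons together, no share of all genes was computed. These counts restate the rule, and nothing is read from them.

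**Figure D1:**
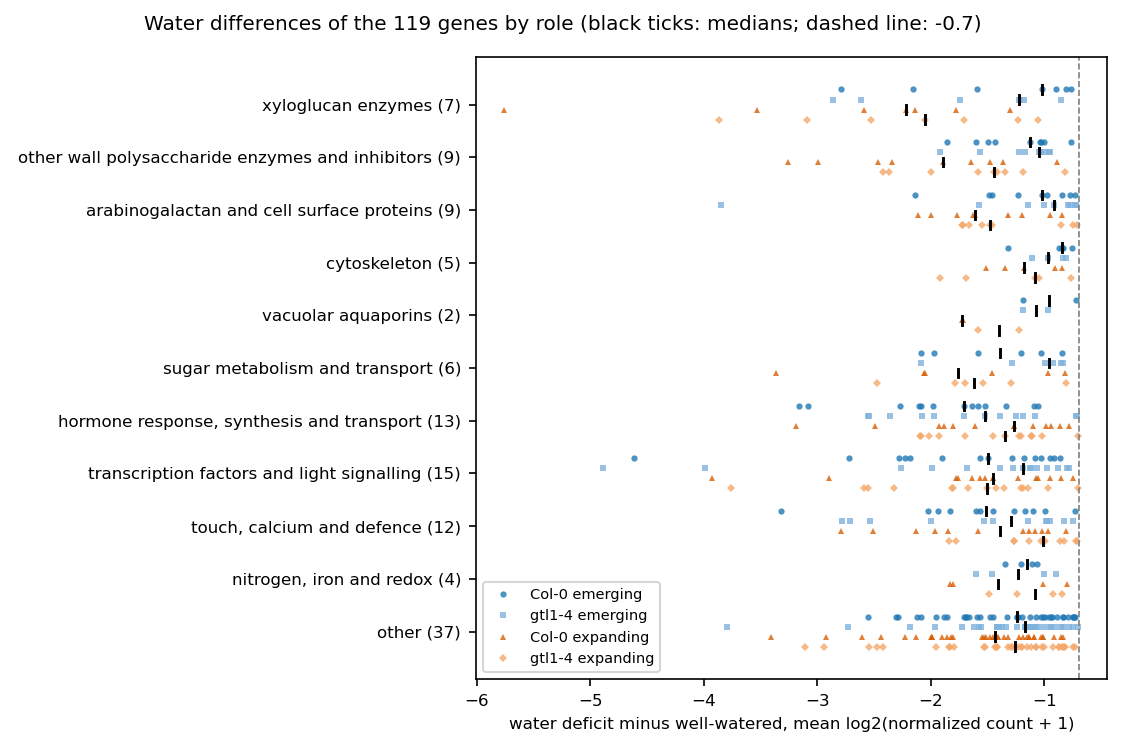
Water differences (x axis, log2) of the 119 genes, 1 point per gene and comparison, in rows by role with the number of genes in brackets; black ticks are medians and the dashed line is the threshold of -0.7. The xyloglucan enzymes have medians of -2.22 and -2.05 in Col-0 and gtl1-4 expanding leaves against -1.02 and -1.22 in emerging leaves.

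Near the threshold, the last genes inside were AT1G69570, AT1G22690 and TPR12, whose weakest differences were -0.71, -0.71 and -0.70, and the first outside were LSH6, RGF6 and TBL25, all at -0.70 or -0.69. Their order turned on hundredths of a log2 unit. By role, 82 genes were placed in 10 groups and 37 remained without one. The members named are those with the lowest mean difference or the highest mean value, those in the pathway lists, those near the threshold and those called for genotype. Any other member is named as an example of its role and was chosen after its values were seen.

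Xyloglucan endotransglucosylase/hydrolases cut a xyloglucan chain and rejoin it to another, and 7 of the 13 measured in both tables were in the set: XTH4, XTH6, XTH7, XTH8, XTH9, XTH22 and XTH24. XTH24 counted 234, 263 and 232 in well-watered and 51.9, 24.3 and 31.8 in deficit Col-0 emerging leaves, and 188, 298 and 194 and then 8.02, 58.1 and 52.3 in gtl1-4. In expanding leaves XTH24 counted 283, 386 and 356 and then 13.2, 0 and 16.4 in Col-0, and 77.9, 174 and 116 and then 8.30, 5.15 and 8.04 in gtl1-4. No deficit library reached a well-watered one, and the differences were -2.79, -2.87, -5.76 and -3.87, in the order Col-0 emerging, gtl1-4 emerging, Col-0 expanding, gtl1-4 expanding that is kept below. The library listed at 0 enlarges the Col-0 expanding value.

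XTH6 was likewise without overlap, as were XTH4, XTH8 and XTH9 of the family. It counted 1392, 1447 and 1495 in well-watered and 281, 395 and 301 in deficit Col-0 emerging leaves. In gtl1-4 XTH6 counted 1303, 2045 and 1334 and then 430, 386 and 563. In expanding leaves it counted 649, 876 and 824 and then 46.2, 81.2 and 77.9 in Col-0, and 633, 864 and 671 and then 63.1, 84.1 and 109 in gtl1-4. The deficit libraries were well below the well-watered ones throughout, with differences of -2.16, -1.75, -3.53 and -3.09.

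XTH9 counted above XTH7 in emerging leaves and below it in expanding leaves. XTH9 counted 10590, 10918 and 11429 in well-watered and 5013, 4986 and 6302 in deficit Col-0 emerging leaves, and 87.7, 58.4 and 58.4 and then 6.60, 23.4 and 15.6 in expanding leaves. XTH7 counted 93.3, 131 and 108 and then 94.3, 77.7 and 32.8 in Col-0 emerging leaves, where the groups overlapped, and 892, 1057 and 936 and then 185, 192 and 287 in expanding leaves. The 2 tables were scaled separately, so these levels are compared within a leaf age. Differences were -1.02, -1.22, -2.22 and -2.53 for XTH9 and -0.81, -1.18, -2.14 and -1.71 for XTH7.

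XTH4 was at -0.77, -0.86, -2.59 and -1.24 and XTH8 at -0.90, -1.22, -1.31 and -1.05. XTH22, known as TCH4 and induced by touch, was at -1.60, -2.61, -1.78 and -2.05. In gtl1-4 expanding leaves XTH22 counted 256, 11.3 and 117 in well-watered and 17.4, 26.6 and 9.18 in deficit libraries, so these groups overlapped.

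**Figure D2:**
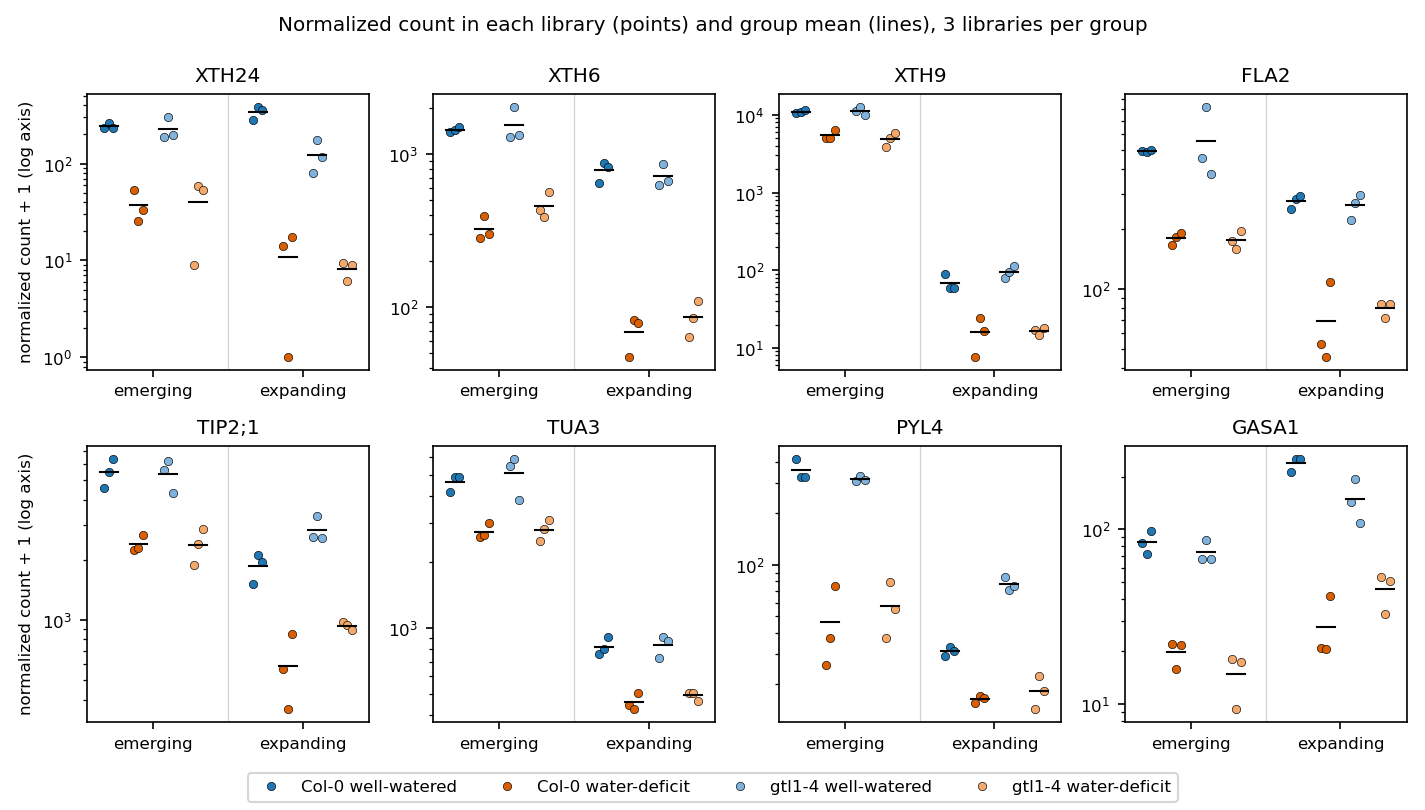
Normalized count + 1 (log axis) of 8 genes of the set in each of the 24 libraries, by leaf age; points are libraries, colours are genotype and water supply, lines are means of 3 libraries. Deficit points lie below well-watered points of the same genotype and age in all 8 panels, and the panels have different axis ranges.

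Other enzymes and inhibitors of wall polysaccharides gave 9 genes, with medians of -1.13, -1.04, -1.90 and -1.44. BXL1, a beta-xylosidase of the wall, counted 673, 620 and 741 in well-watered and 202, 195 and 276 in deficit Col-0 emerging leaves, and 135, 218 and 233 and then 10.6, 14.8 and 42.4 in expanding leaves. Its groups did not overlap in either genotype, and the differences were -1.61, -0.95, -3.26 and -2.37. AT5G62360, of the pectin methylesterase inhibitor family, was at -1.86, -1.92, -2.99 and -2.42 on low counts, at most 40.0 in any library. TBL45, of the family that acetylates wall polysaccharides, was at -1.49, -1.22, -2.47 and -1.44, and FLR1, a leucine-rich repeat protein, at -1.04, -1.04, -2.34 and -1.58. The other 5 were TBL40, PGIP2, a polygalacturonase inhibitor, CSLA03, of the mannan synthase family, RXF12, of the xylanase family, and AT4G23820, of the pectin lyase family.

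Arabinogalactan and other cell surface proteins gave 9 genes. FLA2, a fasciclin-like arabinogalactan protein, counted 493, 490 and 499 in well-watered and 165, 180 and 191 in deficit Col-0 emerging leaves, and 252, 283 and 291 and then 51.5, 44.3 and 107 in expanding leaves. All well-watered libraries were higher, with differences of -1.46, -1.57, -2.12 and -1.72. FLA9, of the same family, was at -2.14, -3.85, -1.77 and -1.73, where 1 gtl1-4 deficit emerging library was listed at 0. GER1, a germin-like protein, counted 12629, 13979 and 15898 and then 6102, 7623 and 7897 in Col-0 emerging leaves, and 5423, 5756 and 7243 and then 1317, 1370 and 1943 in expanding leaves. GER1 lies within another gene's span on the other strand (931 shared bases, AT1G72600), which was itself at a mean of 98.9 in emerging and 21.5 in expanding leaves. Since no source used here states a strand setting for the counting, reads from the shared bases cannot be told apart. SKU5, a surface protein that affects the direction of root growth, was at -0.77, -0.73, -0.95 and -0.75, near the threshold in all 4. The relatives sks5 and sks17, the extensin-like LRX3, AGP21 and ENODL17 completed the group.

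Of the 5 cytoskeletal genes, TUA3 and TUA5 encode alpha-tubulins. TUA3 was at -0.76, -0.84, -0.84 and -0.76 and TUA5 at -0.84, -0.97, -0.91 and -1.05. The genes lie head to head on chromosome 5, 2285 bases apart, and 1324 of their 1353 coding bases (97.9%) and all 450 residues are identical, so the estimated counts may pass reads between them and the pair is best read as 1 measurement. ACT11, an actin, counted 1711, 1541 and 1605 in well-watered and 544, 654 and 765 in deficit Col-0 emerging leaves, and 68.5, 79.8 and 69.7 and then 29.0, 17.2 and 30.3 in expanding leaves. It was at -1.32, -0.81, -1.51 and -1.92, with no overlap. PCAP1, which binds microtubules and membrane lipids, and ARO3, an armadillo repeat protein, were the others. ARO3 shares 2358 bases with AT4G36032 on the other strand, whose means were 159.9 in emerging and 108.8 in expanding leaves. The highest group means of ARO3 were 88.4 and 36.2, so reads of the other gene may weigh on its counts, which was not tested.

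Both vacuolar aquaporins of the set are abundant tonoplast water channels. TIP2;1 counted 4551, 5482 and 6395 in well-watered and 2230, 2279 and 2660 in deficit Col-0 emerging leaves, and 5621, 6221 and 4314 and then 1879, 2403 and 2842 in gtl1-4. In expanding leaves TIP2;1 counted 1518, 2116 and 1955 and then 567, 357 and 851 in Col-0, and 2600, 3317 and 2565 and then 981, 939 and 892 in gtl1-4. The groups did not overlap, and the differences were -1.19, -1.18, -1.73 and -1.58. TIP1;1 was at -0.73, -0.97, -1.72 and -1.22, also with no overlap. The span of TIP2;1 shares 120 bases with a counted gene on the other strand.

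Sugar metabolism and transport gave 6 genes. They included an invertase of each compartment, namely CINV1 of the cytosol, ATBETAFRUCT4 of the vacuole and ATBFRUCT1 of the cell wall. ATBFRUCT1 counted 228, 200 and 234 in well-watered and 88.9, 90.2 and 106 in deficit Col-0 emerging leaves, and 33.9, 32.2 and 82.8 and then 3.96, 18.4 and 13.0 in expanding leaves, at -1.21, -0.92, -2.06 and -1.54. CINV1 was nearer the threshold, at -0.85, -0.85, -0.82 and -0.81. DIN10, of the raffinose synthase family, was at -1.58, -0.83, -3.37 and -2.47, where 1 library was listed at 0. The sugar transporter ERD6 was at -2.08, -2.09, -2.06 and -1.70, and GolS3, a galactinol synthase, was the sixth.

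Hormone response, synthesis and transport gave 13 genes, with larger medians in emerging than in expanding Col-0 leaves (-1.71 and -1.27). PYL4, an abscisic acid receptor, counted 416, 325 and 327 in well-watered and 25.1, 36.1 and 74.4 in deficit Col-0 emerging leaves, and 308, 328 and 312 and then 36.1, 78.4 and 53.8 in gtl1-4. In expanding leaves PYL4 counted 28.5, 32.2 and 30.5 and then 14.5, 16.0 and 15.6 in Col-0, and 83.4, 70.6 and 73.8 and then 13.3, 21.5 and 17.2 in gtl1-4. The well-watered libraries of the 2 genotypes were apart in expanding leaves and the deficit libraries were not, and the differences were -3.09, -2.54, -0.94 and -2.09. Whether the water response differed by genotype was not tested, since that difference is made of the values that chose the genes.

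GASA1, a gibberellin-regulated peptide, counted 82.6, 70.9 and 96.7 in well-watered and 20.9, 14.9 and 20.8 in deficit Col-0 emerging leaves, and 212, 250 and 252 and then 19.8, 19.7 and 40.7 in expanding leaves. It was at -2.09, -2.36, -3.19 and -1.70, and AT1G22690, of the same family, at -3.16, -1.71, -1.88 and -0.71. EXO, a brassinosteroid-responsive protein needed for cell expansion, counted 1011, 1162 and 1379 and then 247, 330 and 658 in Col-0 emerging leaves. In expanding leaves EXO was at most 38.4 in any library and its Col-0 groups overlapped. Auxin was represented by the influx carrier LAX3 (-1.09, -1.25, -1.27 and -1.46), by SAUR78 and SAUR3, and by DFL1, a GH3 enzyme that conjugates auxin. CKX5, which degrades cytokinin, JAZ9, a repressor of jasmonate signalling, OPR1, BRS1 and the phosphatase APD7 were the rest.

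Transcription factors and light signalling gave 15 genes. CIB1, a bHLH factor that binds cryptochrome, had the lowest mean difference of the set and the least certain one. It was listed at 0, 143 and 101 in well-watered and at 0, 0 and 0 in deficit Col-0 emerging leaves, and 11 of its 24 values were 0. It overlaps AT4G34540 on the same strand over 1784 bases, so its estimated counts depend on how shared reads were divided, and no fold is given against its groups at 0. No other gene of the set had a group wholly at 0.

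HAT1, a class II homeodomain-leucine zipper factor, counted 71.9, 54.8 and 87.0 in well-watered and 38.8, 14.9 and 20.8 in deficit Col-0 emerging leaves, and 157, 108 and 238 and then 42.2, 52.9 and 73.6 in expanding leaves. Its groups were apart in all 4 comparisons, at -1.56, -2.26, -1.52 and -1.19. MEE3, a MYB-like factor, was at -2.18, -4.89, -1.45 and -2.32, where its gtl1-4 deficit emerging libraries counted 2.00, 0 and 22.6. LHY, a factor of the circadian clock, was at -0.87, -1.19, -1.07 and -1.21. The bZIP factors BZIP34, BZIP61 and BZO2H3, the phytochrome kinase substrates PKS1 and PKS4, RAV1, BT5 and AT1G69570 were also in the group. PKS4 was the least separated gene of the whole set, with overlap in 3 of 4 comparisons.

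Touch, calcium and defence gave 12 genes. AT3G04210, annotated as a TIR-NBS disease resistance protein, counted 70.6, 105 and 110 in well-watered and 9.55, 39.2 and 0.993 in deficit Col-0 emerging leaves, and 488, 539 and 689 and then 100, 186 and 163 in expanding leaves. Its differences were -3.32, -2.71, -1.96 and -1.03, with no overlap. PR5, a pathogenesis-related protein, counted 126, 116 and 134 and then 21.1, 9.84 and 44.2 in Col-0 expanding leaves, but 25.2, 66.3 and 55.8 and then 24.1, 20.6 and 29.8 in gtl1-4, where the groups overlapped. TCH3, a calmodulin-like protein induced by touch, was at -1.93, -2.78, -2.13 and -1.78, and its Col-0 emerging groups overlapped. CBP60G, an activator of salicylic acid synthesis, RLK7, MAPKKK14 and the lectin JAL23 were further members.

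Of the 4 genes of nitrogen, iron and redox, NIA2 is the main nitrate reductase of the leaf. NIA2 counted 2981, 3572 and 4736 in well-watered and 1197, 1381 and 1866 in deficit Col-0 emerging leaves, and 5453, 6764 and 5003 and then 3014, 2155 and 3451 in expanding leaves. Deficit libraries were lower throughout, at -1.34 in Col-0 emerging and -0.84 in gtl1-4 expanding leaves. The amino acid permease AAP6, the methionine sulfoxide reductase MSRB6 and the ferritin FER3 were the others, and all 4 genes had no overlap in any comparison.

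The 37 remaining genes had medians of -1.24, -1.17, -1.44 and -1.26. AT5G44020, annotated as an acid phosphatase, counted 2710, 2735 and 2924 in well-watered and 754, 1010 and 847 in deficit Col-0 emerging leaves, and 654, 866 and 887 and then 47.5, 83.6 and 101 in expanding leaves. AT5G52882, annotated as a nucleoside triphosphate hydrolase, counted 1027, 1173 and 1363 and then 232, 319 and 265 in Col-0 emerging leaves, and 122, 151 and 146 and then 18.5, 6.15 and 44.2 in expanding leaves. Neither gene had overlapping groups, and their lowest differences were -3.41 and -2.92, both in Col-0 expanding leaves. AT2G45180, annotated in the lipid transfer superfamily, was at -1.96, -1.73, -1.81 and -1.44. The uncharacterized AT5G03120 was at -2.31, -2.19, -1.91 and -2.42, and CYP706A1, a cytochrome P450, at -0.83, -0.91, -1.15 and -0.75. Several families had a pair of members here, among them the aspartyl proteases AT1G03220 and AT5G10770, the acyltransferases DCF and AT5G16410, and the DUF1005 proteins AT1G10020 and AT4G29310.

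The set had 37 genes on chromosome 1, 20 on 2, 11 on 3, 24 on 4 and 27 on 5, which is 0.344% of the genes tested on chromosome 3 and 0.989% on chromosome 4. Median exon length was 1780 bases, against 1865 for genes in both tables. Apart from the tubulin pair, 1 other pair lay close together, TBL45 and MAPKKK14 with 1 gene between them. Another annotated gene overlaps 26 of the 119, in 23 cases on the opposite strand.

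Between leaf ages, the mean difference over genotypes was lower in expanding leaves for 76 genes and in emerging leaves for 43. The gap exceeded 1 log2 unit for 13 genes lower in expanding leaves, among them XTH24, DIN10, BXL1, BZIP61, XTH6, XTH9 and XTH4, and for 8 lower in emerging leaves. Col-0 had the lower difference of the 2 genotypes for 64 genes in emerging and 77 in expanding leaves. These are descriptions of values that chose the genes.

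Levels by leaf age were not used by the rule beyond its filter, and are given as CPM over nuclear genes (counts scaled to a fixed total of nuclear reads) because each table has its own scaling, so no test spans both. In well-watered Col-0, 42 of the 119 genes (35.3%) were higher in emerging than in expanding leaves, against 62.6% of 16045 genes. The shares in the other groups were 42.0% against 67.3% in deficit Col-0, 36.1% against 68.6% in well-watered gtl1-4 and 41.2% against 68.2% in deficit gtl1-4. In well-watered Col-0, XTH9 went from 508 ± 12.9 (SD, n = 3) in emerging to 10.9 ± 3.23 in expanding leaves and EXO from 54.7 ± 7.74 to 1.21 ± 0.946. Other members ran the opposite way, with XTH7 at 5.13 ± 0.913 and 153 ± 10.4, AT2G45180 at 350.0 ± 28.4 and 1697 ± 184 and NIA2 at 174 ± 38.4 and 912 ± 139. TIP2;1 was at 253 ± 39.2 and 295 ± 38.3 in well-watered Col-0, within the spread of the replicates, but at 254 ± 32.4 and 427 ± 48.7 in well-watered gtl1-4. Members with like water differences thus included genes with higher levels in young leaves and genes with higher levels in older leaves. The 7 dividing-cell markers summed to 6610 to 8731 normalized counts in emerging and to 42.9 to 120 in expanding leaves.

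The pathway lists around the set held 213 genes in 20 lists, of which 17 are members. Among genes measured in both tables, the set took 7 of 13 xyloglucan endotransglucosylases, 2 of 4 vacuolar aquaporins and 2 of 6 fasciclin-like arabinogalactan proteins. It took none of 14 expansins, 12 plasma membrane aquaporins, 5 primary wall cellulose synthases, 17 light-harvesting proteins or 9 DNA replication genes. Of all genes measured in both tables it took 119 of 16185 (0.735%). The lists were chosen with earlier results of these data known, so no enrichment is read from these counts. Of the list genes outside the set, limma called lower 21 of 166 in Col-0 and 21 of 166 in gtl1-4 emerging leaves. In expanding leaves the counts were 59 of 167 and 25 of 167. Shares of all genes called lower were 6.69%, 3.9%, 7.32% and 2.4%. The same list genes were called higher in 23 and 22 cases in emerging and in 11 and 3 in expanding leaves. Their median differences were 0.108, 0.11, -0.485 and -0.286. Higher calls took 6.48%, 4.98%, 6.18% and 2.36% of all genes in the 4 comparisons. The rule itself kept members from having any.

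Expansins, which loosen walls without cutting them, had medians of 0.25, 0.12, 0.09 and -0.21, with 1, 1, 5 and 3 genes called lower and 3, 3, 3 and 1 called higher of 14 tested in emerging and 16 in expanding leaves. EXPA15 rose in emerging leaves, from 258 ± 20.1 to 922 ± 20.3 (SD, n = 3) in Col-0, by 1.83 ± 0.134 (SE) on the log2 scale (adjusted p = 1.24e-06, limma), and by 1.33 ± 0.134 in gtl1-4 (adjusted p = 3.03e-05, limma). Plasma membrane aquaporins were called lower in 3 and 1 of 13 in emerging and in 8 and 6 of 12 in expanding leaves. PIP2;2 was at -0.74, -0.48, -1.10 and -0.99, of which all but gtl1-4 emerging leaves passed the limma test. Its call in Col-0 emerging leaves was lost in 3 of 23 alternatives (adjusted p up to 0.0824, limma), and its calls in expanding leaves held in all 23. PIP2;5 rose by 0.72, 0.61 and 1.49 in the first 3 comparisons and stood at 0.85 in the last (adjusted p = 0.142, limma).

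The remaining vacuolar aquaporins measured in expanding leaves, TIP2;2 among them at -1.48 and -1.10, were also called lower there, so all 4 tested were called in both genotypes. Fasciclin-like arabinogalactan proteins were called lower in 2 and 4 of 7 and in 6 and 4 of 6. These counts include the members FLA2 and FLA9, which the water differences chose. Outside the set the calls were 1 and 2 of 5 in emerging and 4 and 2 of 4 in expanding leaves. For DNA replication genes the calls divided by leaf age, with 9 and 6 of 9 called lower in emerging and none in expanding leaves. Their medians did not divide in the same way, at -0.518, -0.468, -0.29 and -0.472. MCM6, a subunit of the replicative helicase, was at -0.47 and -0.47 in emerging leaves and at -0.61 and -0.86 in expanding leaves, where counts were low (adjusted p = 0.165 and 0.101, limma). The MCM6 calls in Col-0 and gtl1-4 emerging leaves were lost in 5 and 8 of 23 alternatives. Light-harvesting proteins had no lower call in any comparison by limma. Lipid transfer proteins had 4, 5, 3 and 2 genes called higher, with LTP3, a wax and drought-associated protein, 4.24, 4.12, 4.13 and 4.08 higher on the log2 scale. Calls for a list in one leaf age and not in the other were not tested as a difference.

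**Figure D3:**
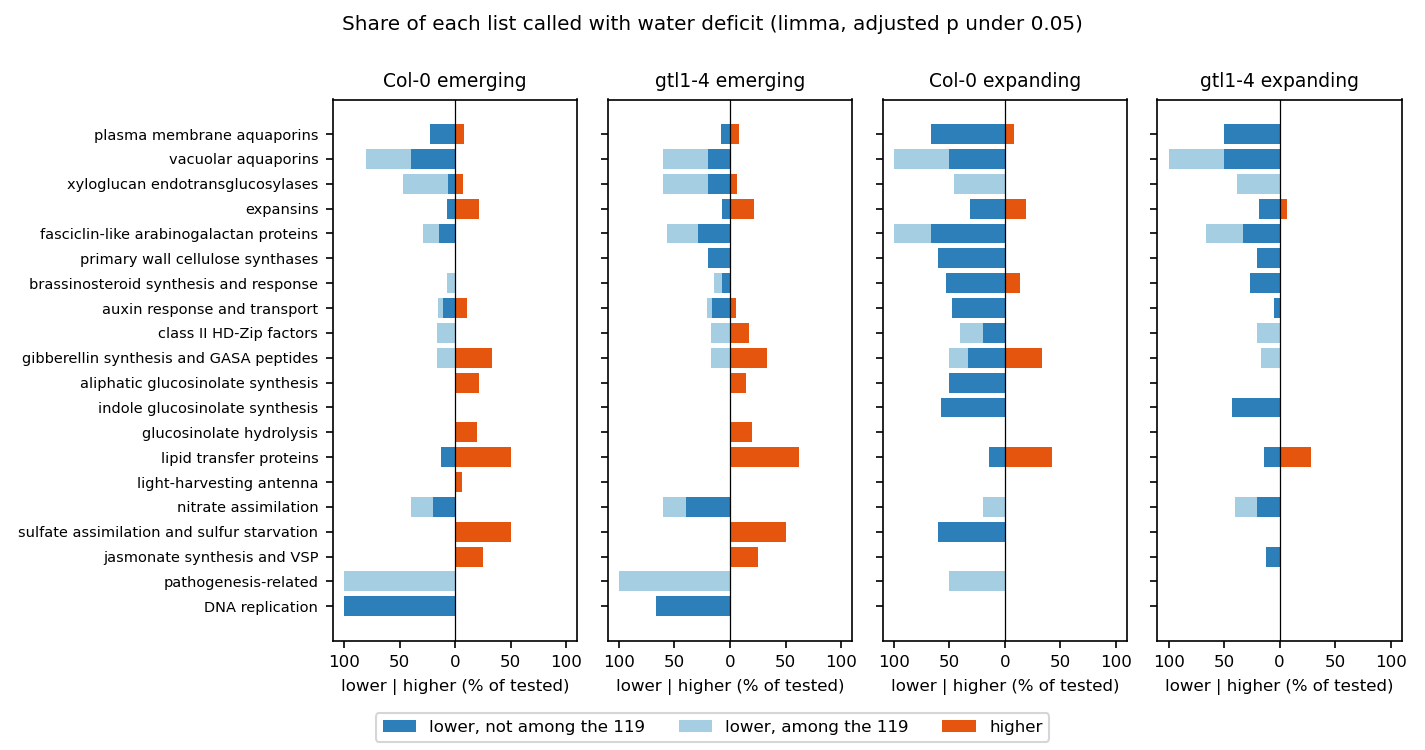
Share of the tested genes of each list (rows) called lower (to the left) or higher (to the right) with water deficit by limma, in percent, in 4 panels by genotype and leaf age; light blue marks the genes among the 119. The bar of the vacuolar aquaporins reaches 100% lower in both expanding panels, and that of DNA replication reaches 100% in Col-0 emerging leaves and is empty in both expanding panels.

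The test that the rule left free was genotype, as gtl1-4 minus Col-0 averaged over both water supplies. In emerging leaves 1 of the 119 genes was called (0.840%, background 0.443%, of which 0.135% lower and 0.308% higher), and in expanding leaves 7 were (5.88%, background 1.88%), of which 6 were higher in gtl1-4 (background 0.926%) and 1 lower (0.956%). At an unadjusted p under 0.05, 21 of the 119 passed in emerging leaves, 16 lower and 5 higher in gtl1-4. Of all 18529 genes tested there 1182 passed, 559 lower and 623 higher. In expanding leaves 31 of the 119 passed, 9 lower and 22 higher. Of all 16522 genes tested there 2412 passed, 1155 lower and 1257 higher. The median genotype effect of the set was -0.06 in emerging and 0.10 in expanding leaves on the log2 scale, where all genes had 0.00 and 0.01.

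CRK40, a cysteine-rich receptor-like kinase, counted 415, 418 and 390 in well-watered gtl1-4 expanding leaves and 240, 318 and 285 in Col-0, and 204, 172 and 180 against 84.5, 95.9 and 97.8 under deficit. The genotypes did not overlap at either water supply, and CRK40 was higher in gtl1-4 by 0.77 ± 0.102 (SE) on the log2 scale (adjusted p = 0.000742, limma). This call held in all 22 alternatives, with adjusted p from 0.000239 to 0.00516. In emerging leaves CRK40 counted 143, 208 and 148 against 241, 260 and 253, and 22.1, 16.6 and 55.4 against 65.1, 67.5 and 77.4, lower in gtl1-4 at both water supplies but not called.

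AAP6 was higher in gtl1-4 expanding leaves by 0.72 (adjusted p = 0.013, limma). It counted 472, 714 and 672 against 490, 447 and 431 in well-watered libraries, which overlapped, and 305, 230 and 243 against 115, 102 and 174 under deficit, which did not. AT2G45180 was lower in gtl1-4, at 5694, 7517 and 6250 against 10707, 9544 and 11748 in well-watered and 2397, 2309 and 2437 against 2569, 2919 and 3741 in deficit libraries. Its effect was -0.54 (adjusted p = 0.014, limma), and the genotypes did not overlap. Among 22 alternatives, AAP6 and AT2G45180 each lost the call in 1, a fit with no trend of the variance (adjusted p = 0.0646 for both).

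MSRB6 was higher in gtl1-4 by 0.47 (adjusted p = 0.0189, limma), at 1379, 1422 and 1383 against 1149, 1188 and 1046 in well-watered and 526, 503 and 459 against 255, 348 and 373 in deficit libraries. Leaving out gtl1-4 deficit replicate 1 or 2 or gtl1-4 well-watered replicate 3 raised the adjusted p to 0.0642, 0.0568 and 0.0507, and a fit with no trend of the variance gave 0.0809. AT2G16660, annotated as a major facilitator transporter, was higher by 0.93 (adjusted p = 0.0266, limma), with overlap of the genotypes in well-watered libraries. Its call was lost in 6 of 12 fits that left out 1 library, and 8 of 22 alternatives in all, with adjusted p up to 0.105.

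TIP2;1 and TIP1;1 were higher in gtl1-4 by 0.68 and 0.79 (adjusted p = 0.0395 and 0.0455, limma), with no overlap of the genotypes at either water supply. In TIP1;1 the well-watered libraries counted 1269, 1723 and 1545 against 787, 1147 and 1199, and the deficit libraries 635, 620 and 672 against 337, 175 and 511. Both calls stood near the threshold. Each was lost in 9 of the 12 fits that left out 1 library, with adjusted p over all alternatives from 0.00378 to 0.145 for TIP2;1 and from 0.00518 to 0.157 for TIP1;1.

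In emerging leaves XTH22 had a genotype effect of -0.68 ± 0.123 (SE) on the log2 scale (adjusted p = 0.0167, limma). It counted 514, 669 and 558 in gtl1-4 and 574, 691 and 692 in Col-0 well-watered libraries, which overlapped, and 105, 100 and 77.2 against 180, 216 and 253 under deficit, which did not. Without Col-0 deficit replicate 3, Col-0 well-watered replicate 2 or 3, or gtl1-4 well-watered replicate 1 the adjusted p was 0.0615, 0.0747, 0.0752 and 0.0776. It was 0.0643 with no trend of the variance and 0.0536 with limma-voom on recovered reads.

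**Figure D4:**
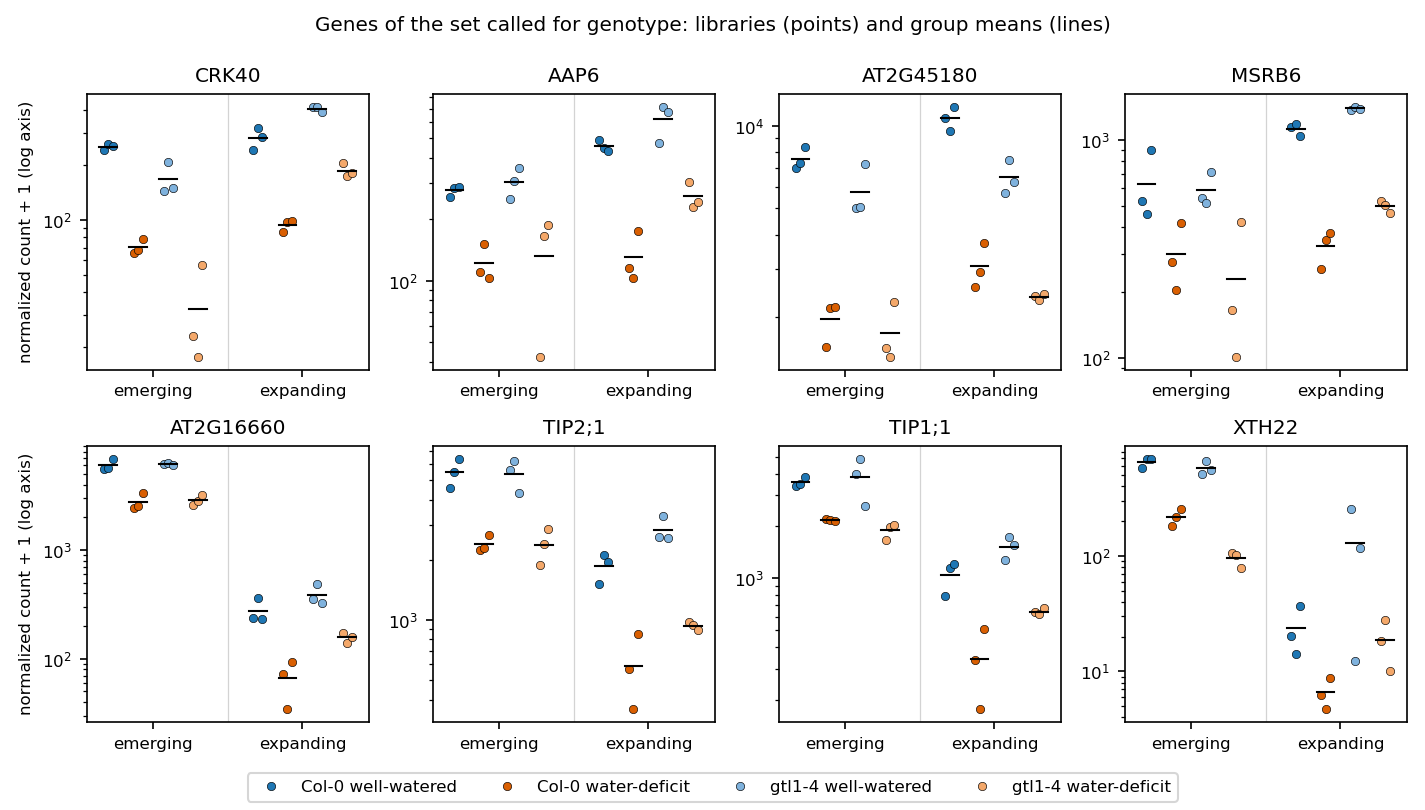
Normalized count + 1 (log axis) of the 8 genes called for genotype, in each library by leaf age; points are libraries, colours are genotype and water supply, lines are means of 3 libraries. XTH22 was called in emerging leaves and the other 7 in expanding leaves, where CRK40 has gtl1-4 points above Col-0 points at both water supplies.

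**Figure D5:**
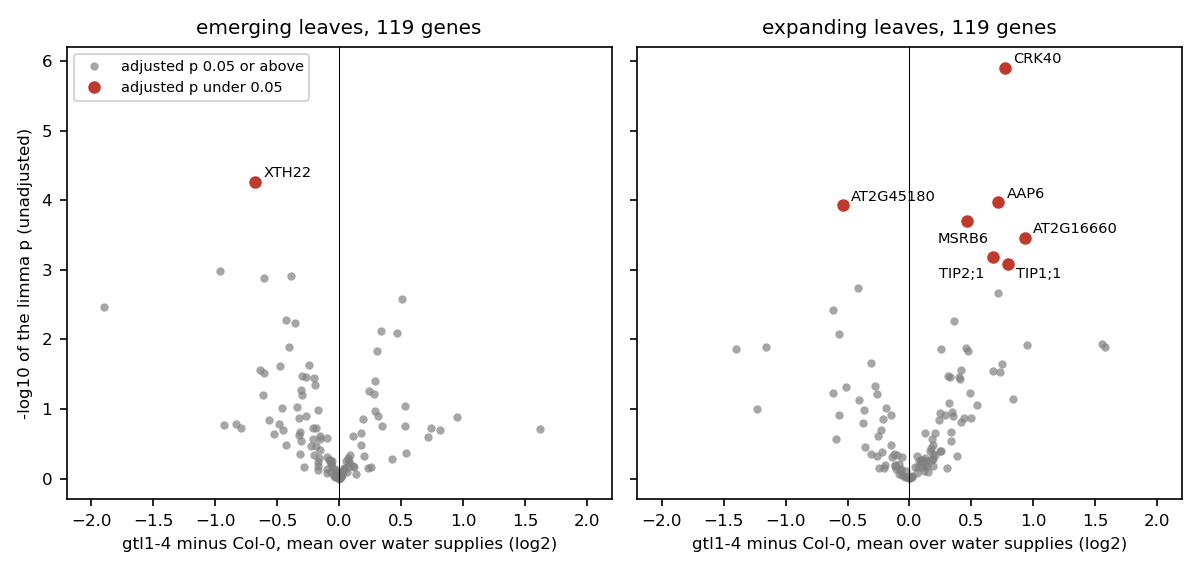
Genotype effect (gtl1-4 minus Col-0 averaged over water supply, log2, x axis) against -log10 of the unadjusted limma p (y axis) for the 119 genes in emerging (left) and expanding (right) leaves; red points have an adjusted p under 0.05. The left panel has 1 red point, at -0.68, and the right has 7, of which 6 lie to the right of 0.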

How the data were processed

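RNA sequencing of 24 libraries gave 1 table of 12 libraries per leaf age. The deposited values are normalized counts, a signal that is never negative. Per the submitters' processing notes reads were handled with RSEM, STAR, Trim Galore, FastQC, Trimmomatic and bcl2fastq and the build was TAIR10; versions and the method of scaling are not given in the sources used here. Within a library 96.5 to 97.9% of values were whole multiples (tolerance 0.002) of 1 step, so the deposited signal is taken as estimated counts divided by 1 factor per library, and the count tests were replaced by a log-scale test because the rest were not whole.

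The members and all lists and roles were chosen with earlier results of these data known. The rule was applied to log2(value + 1). Limma 3.58.1 (R 4.3.3) was fitted to log2(value + 1) of the 12 libraries of a leaf age as 4 groups, over genes whose mean reached 10 (18529 in emerging and 16522 in expanding leaves), with a variance trend and Benjamini-Hochberg adjustment over all genes tested, called at 0.05. Fold changes understate low genes. On simulated data the genotype test recovered 83.6% of 2-fold changes in emerging and 73.1% in expanding leaves. At 1.5-fold the recovered shares were 55.2% in emerging and 34.3% in expanding leaves. Replicates are biological per the labels. Replicate numbers gave no clear sign of pairing: deviations of same-numbered libraries correlated from -0.283 to 0.2 in emerging and from -0.161 to 0.133 in expanding leaves. Such correlations cannot exclude a block shared by same-numbered libraries.

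Genes were matched by locus tag to TAIR10.1 (37051 of 37336, and all 119 members), used for names, promoters and positions. Named members are the 12 with the lowest mean water difference, the 5 with the highest mean value in each table, members of a list, those called for genotype, and the 3 nearest the threshold on either side; of each list, up to 3 called genes. Alternatives were pseudocounts of 0.5 and 5, no filter or a mean of at least 50, other scalings, no variance trend, array weights, a replicate block, fits of only the groups compared, each library left out, and, added after the data were seen, limma-voom on recovered reads.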

Additional observations from a re-analysis of the deposited data

How the results depend on the processing

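The rule gave 196 genes with no filter on low values, all 119 among them, and 66 with a mean of at least 50. Under pseudocounts of 0.5 and 5, quantile scaling and median-of-ratios rescaling it gave 102 to 128. Leaving out 1 library gave 113 to 132 genes, and 58 of the 119 were kept whichever library was left out. Of the water differences of the 36 named members, 1431 values under alternatives stayed within the replicate spread, 9 moved and none changed sign. A value counted as moved when it shifted by at least the replicate SD. Leaving out 1 of 3 libraries cannot shift a difference that far, so those fits could not count as moved. Stability to single libraries is therefore not read from this count. Of 91 named test results, for genotype and for list genes outside the set, 43 were kept in every alternative.

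The count of members called for genotype in emerging leaves, 1, became 0 with no variance trend, 3 with array weights and 0 with limma-voom on recovered reads, and ran from 0 to 4 when 1 library was left out. It was 0 without Col-0 deficit replicate 3, Col-0 well-watered replicate 2 or 3 or gtl1-4 well-watered replicate 1, 2 without gtl1-4 well-watered replicate 3 and 4 without gtl1-4 deficit replicate 3. In expanding leaves the count of 7 became 2 with no variance trend and ran from 3 to 9, with 3 without gtl1-4 deficit replicate 1 or 2 and 4 without Col-0 well-watered replicate 1 or 3 or gtl1-4 well-watered replicate 3. List genes called lower in gtl1-4 expanding leaves, 37 with members included, became 21 with no variance trend and 56 with array weights. With 1 library left out they ran from 18 (without gtl1-4 deficit replicate 2) to 44, with 23 without gtl1-4 well-watered replicate 2. For Col-0 emerging leaves the 36 ran from 23 (without deficit replicate 1) to 40, for gtl1-4 emerging leaves the 37 from 25 to 42 and for Col-0 expanding leaves the 73 from 51 to 76. The cause was not tested.

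With the replicate block the genotype counts were 1 and 5 and the list counts 32, 34, 70 and 34; AT2G16660 (adjusted p = 0.0519) and TIP2;1 (adjusted p = 0.0627, limma) were then not called. Same-numbered libraries matched each other best in 2 of 12 emerging and 5 of 12 expanding libraries. Deficit libraries of low members hold few reads, so their folds are the least precise.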
